A study of Mus musculus with 2 samples.

Results

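The Bcl2 family decides at the mitochondrion whether a cell under stress lives or dies. The 10 family genes considered here are the survival genes Bcl2, Bcl2l1 and Mcl1, the effector genes Bax and Bak1, and the BH3-only genes Bcl2l11, Bad, Bid, Bik and Bmf. Members were all probe sets whose platform gene symbol was one of these names, whatever their values. Of the 45037 probe sets that were not array controls, 33 met this rule, and they covered 9 of the 10 genes among 18193 named genes. No probe set in the annotation used here carried the symbol Bax, so Bax is not analysed here.

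The samples were mammary glands of female CD1 mice, bought at 6 weeks of age and mated, at day 0 and day 1 of involution, in which the gland regresses once suckling ends. Day 0 was the day on which the litter, set to 6 pups, was taken away at day 10 of lactation, and the day 1 group had been without pups for 1 day. Both groups were therefore dams of the same strain, litter size and stage of lactation at weaning, and no agent or altered allele is named in the labels. Each day is represented by 1 Affymetrix Mouse Genome 430 2.0 array, which received the pooled RNA of 5 mice, so there are 2 arrays in 2 groups of 1. There is no replicate array, the spread between mice cannot be seen, and no difference below has a test or an error between days.

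In the family, Bcl2, Bcl-x and Mcl1 hold back cell death by binding their relatives. Bax and Bak form pores in the outer mitochondrial membrane that release cytochrome c. BH3-only proteins sense damage, lost attachment or lost growth factor signals, and either block the survival proteins or activate the pore formers. In the mammary gland the secretory epithelium dies when milk is no longer removed, and loss of Bcl-x in this epithelium is known to hasten that death.

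On day 1, 4 of the 9 measured members had a signal at least 2-fold above that of day 0, and 0 had one at least 2-fold below it. The 4 came from all 3 functional classes: the BH3-only genes Bid (at least 4.37-fold) and Bik (at least 3.99-fold), the survival gene Bcl2l1 (3.09-fold) and the effector gene Bak1 (2.32-fold). Of all 13239 measured genes, 10.4% passed 2-fold on the higher side and 13.3% on the lower side. The share of members on the higher side was thus above that of the array. With 9 members, the count of 0 on the lower side is not read as particular to them. The median log2 ratio of day 1 over day 0 was 0.98 for the members and -0.12 for all measured genes. A ratio above 0 was found for 7 of the 9 members, against 43.3% of the measured genes. A gene was called measured when its brighter array was above a floor of 77.7, which is the median signal of both arrays together. Lower signals were set to that floor, which makes the fold of a gene at the floor on 1 array a lower bound, written "at least". Bid and Bik were at the floor on day 0 and were measured only through day 1. They could therefore not have come out lower, which limits what the counts of higher members can show. Each gene was represented by its main probe set, the brightest on average over both arrays. With a floor at the 75th percentile of all signals, Bid, Bik and Bak1 were all at the floor on day 0. They gave bounds of at least 0.44, 0.31 and 0.77 log2, which do not reach 2-fold and do not exclude it. Bcl2l1 alone remained past 2-fold there.

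Counted by probe set, 25 of the 33 were measured, and the other 8 were at or below the floor on both arrays. Of the 25, 10 passed 2-fold on the higher side and 0 on the lower side, beside 9.86% and 12.6% of the 22699 measured probe sets with a gene name. The log2 ratio was above 0 in 23 of the 25, beside 42.9% of all. Only 14 of the 25 were above the floor on both arrays, so many of the family's ratios are bounds. A probe set at the floor on day 0 was measured only through day 1, so its ratio could only be above 0. The direction of such bounds was fixed by the filter and adds nothing to these counts. Ratios from different probe sets of 1 gene had a pooled SD of 0.56 log2, taken over 3943 genes. That spread is the only measure of precision in these data, and it holds no difference between mice.

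**Figure D1:**
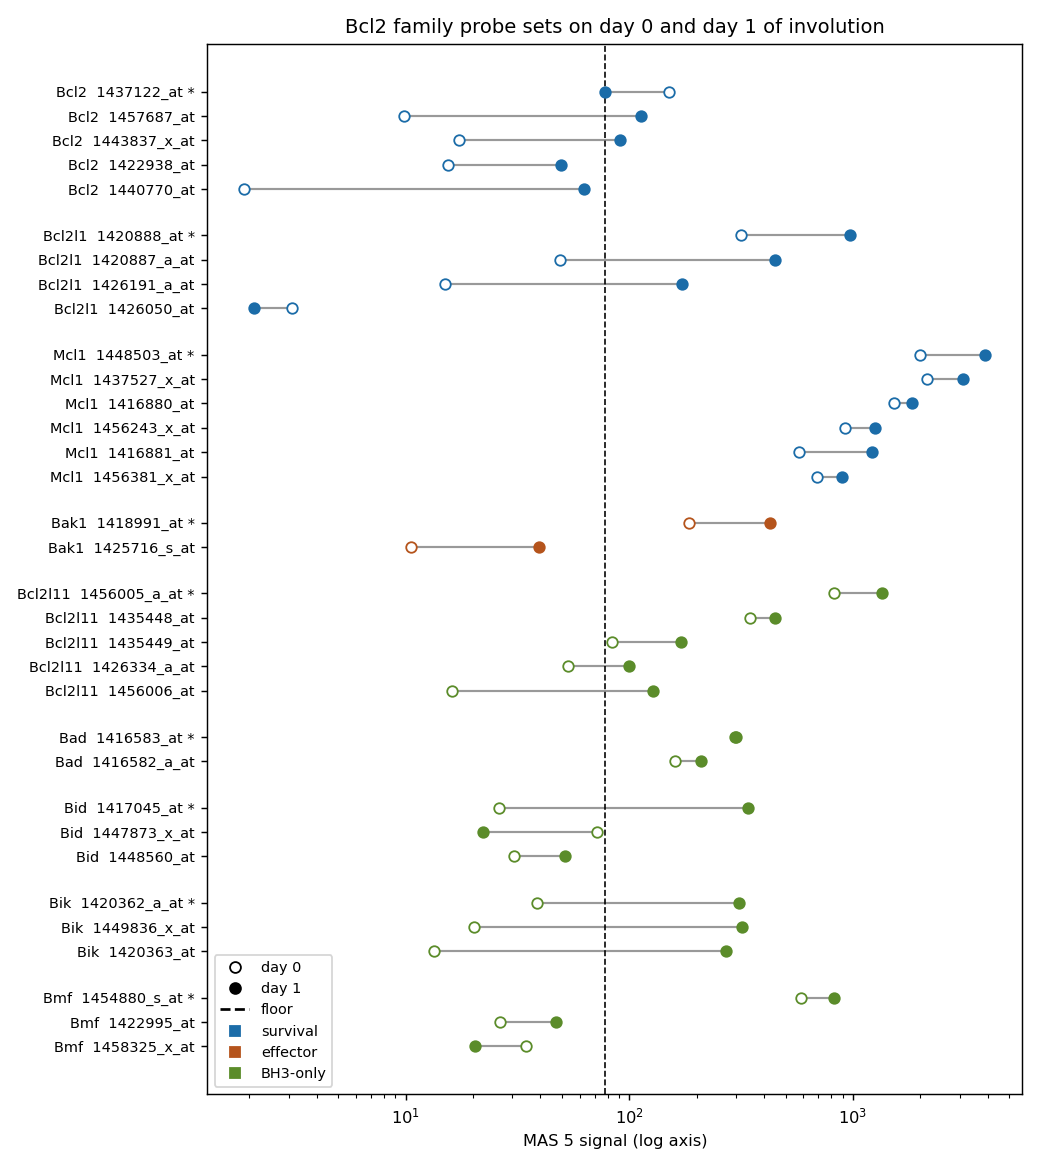
MAS 5 signal of each of the 33 Bcl2 family probe sets on day 0 (open circle) and day 1 (filled circle), on a log axis, with the floor of 77.7 as a dashed line, colours for the class and a star for the probe set that stands for the gene. All 3 Bik probe sets cross the floor between the days, all 6 Mcl1 probe sets lie above it on both days, and the starred Bcl2 probe set runs against the other 4.

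The promoters of 3 of the 4 genes at least 2-fold higher on day 1 are shown, because these genes differed in the same direction while their promoters look unlike. Each line gives the 250 bases before the start of transcription, from RefSeq on GRCm38.p6, on the strand of the gene, with GGGCGG, the GC box bound by Sp1 and its relatives, in capitals. All 3 genes lie on the minus strand, Bid at chr6:120916825-120917074, Bak1 at chr17:27028628-27028877 and Bcl2l1 at chr2:152831729-152831978.
Bid: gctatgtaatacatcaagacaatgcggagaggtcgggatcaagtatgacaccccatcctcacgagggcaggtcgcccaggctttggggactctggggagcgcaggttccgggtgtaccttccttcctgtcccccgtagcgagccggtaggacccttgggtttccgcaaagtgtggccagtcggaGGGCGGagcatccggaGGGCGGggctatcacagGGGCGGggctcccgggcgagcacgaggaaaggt
Bak1: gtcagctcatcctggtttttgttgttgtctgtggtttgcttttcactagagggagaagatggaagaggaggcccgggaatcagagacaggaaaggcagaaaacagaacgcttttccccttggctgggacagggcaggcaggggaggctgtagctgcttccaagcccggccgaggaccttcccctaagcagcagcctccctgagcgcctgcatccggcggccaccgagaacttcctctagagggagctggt
Bcl2l1: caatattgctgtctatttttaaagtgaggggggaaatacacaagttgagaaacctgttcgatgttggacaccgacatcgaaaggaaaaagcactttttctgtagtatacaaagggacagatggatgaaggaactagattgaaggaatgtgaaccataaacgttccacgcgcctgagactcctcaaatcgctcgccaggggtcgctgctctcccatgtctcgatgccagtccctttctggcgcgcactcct

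Bid has 3 GC boxes, which begin 66, 50 and 33 bases before the start, and neither of the other 2 windows has one. The Bcl2l1 window is the most upstream of the 3 that RefSeq gives for the gene. The table held 15 windows for 9 of the 10 genes, all but Bik. A GC box on either strand was found in 7 of the 15 windows, belonging to 6 genes, beside 32.7% of all 32851 promoter windows of the same length. Bcl2 had the most, with 7. The Stat site TTCNNNGAA, the AP-1 site TGANTCA and the TATA box TATAAA, each searched on both strands, were found in 0 of the 15 windows, beside 7.02%, 6.75% and 12.4% of all windows. No match overlapped another motif, since GC boxes alone were found, and each GC box contains a CpG. The 15 windows had a median GC content of 58.4% and a median ratio of observed to expected CpG of 0.73, against 52.4% and 0.37 over all windows. Several windows belong to the same gene. GC content ranged from 47.6% in the Bcl2l1 window shown to 74.8% in Bcl2. The matches describe letters in these windows and show neither binding nor its absence.

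Among the survival genes, Bcl2l1 was higher on day 1 by its main probe set, the only one above the floor on both arrays. Bcl2l1 encodes Bcl-xL, which restrains Bax and Bak, and by alternative splicing the shorter Bcl-xS, which does not. The main probe set, 1420888_at, had a signal of 314.6 on day 0 and 972.3 on day 1, a log2 ratio of 1.63. This ratio was higher than that of 96.4% of the measured genes and 2.89 times the SD between probe sets. Probe set 1420887_a_at had 49 and 447.9, and 1426191_a_at had 15 and 172.1. Both were at the floor on day 0, and their bounds were at least 2.53 and at least 1.15 log2. Measured only through day 1, neither could have come out lower. The suffix _a_at marks probe sets that match several transcripts of a gene, so these bounds may sum over isoforms. The last probe set, 1426050_at, had signals of 3.1 and 2.1 and measured nothing on either day.

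Mcl1 encodes a short-lived survival protein whose amount follows its synthesis closely. All 6 of its probe sets were above the floor on both arrays and all 6 were higher on day 1. The main one, 1448503_at, had 1985.5 on day 0 and 3906.5 on day 1, or 1.97-fold, just under the 2-fold line. Probe set 1416881_at had 575.3 and 1211.9, with a log2 ratio of 1.07, the only one of the 6 past 2-fold. The remaining 4, among them all 3 with the suffix _x_at, which marks probes that may match other transcripts, had smaller ratios down to 0.27 log2. The direction was therefore shared by all 6 probe sets, while the size ranged over 0.81 log2.

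For Bcl2, the family's founding gene, the direction depended on the probe set. The main probe set, 1437122_at, had 150.9 on day 0 and 77.6 on day 1, at least 1.94-fold lower, with the day 1 signal next to the floor. Probe set 1457687_at had 9.8 and 113.1, at least 0.54 log2 higher, and 1443837_x_at had 17.4 and 90.8, at least 0.22 log2 higher. The last pair, 1440770_at with 1.9 and 62.6 and 1422938_at with 15.5 and 49.4, stayed below the floor. Of the 5 probe sets, 4 thus had the higher signal on day 1, but none was above the floor on both arrays, and no direction is given for Bcl2.

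**Figure D2:**
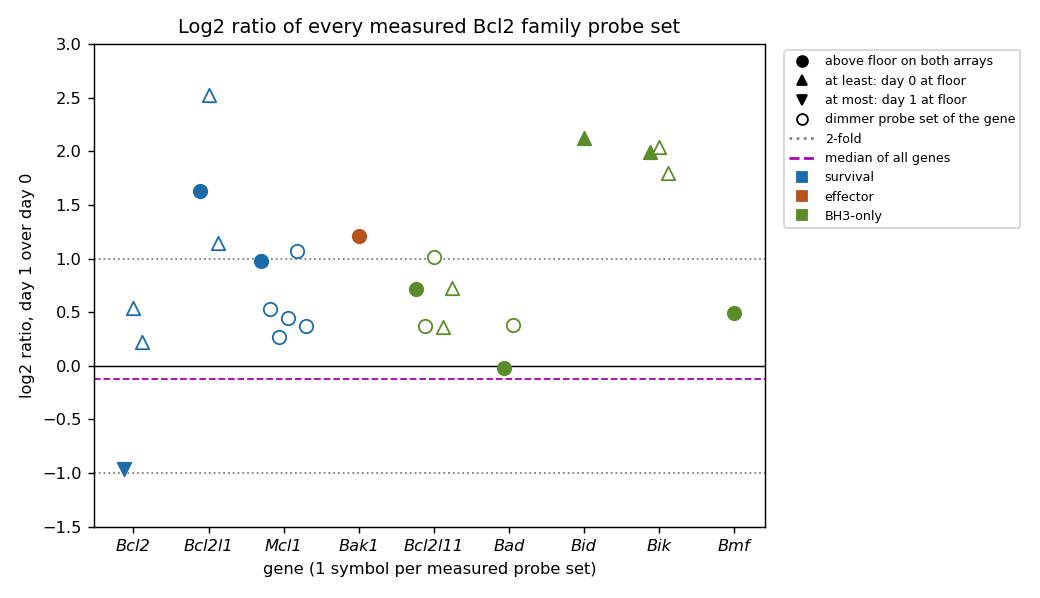
Log2 ratio of day 1 over day 0 for each of the 25 measured probe sets, by gene, with the main probe set filled and dimmer ones open. Triangles mark bounds from a signal at the floor, dotted lines mark 2-fold, and the dashed line is the median of all measured genes at -0.12. Bid, all 3 probe sets of Bik, all 3 of Bcl2l1 and Bak1 lie above the upper dotted line. So do 1 dimmer probe set of Mcl1 and 1 of Bcl2l11.

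The effector class was represented by Bak1 alone. Bak sits in the outer mitochondrial membrane and forms the pore once it is released from Bcl-xL and Mcl1. Its main probe set, 1418991_at, had 184.2 on day 0 and 426.8 on day 1, a log2 ratio of 1.21, higher than that of 92.7% of the measured genes. Its other probe set, 1425716_s_at, had 10.6 and 39.6, below the floor on both arrays. The difference in Bak1 therefore rests on 1 probe set.

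By main probe set, the BH3-only genes ranged from a ratio near 0 for Bad to bounds of at least 2.00 and 2.13 log2 for Bik and Bid. Bid links death receptors to mitochondria, since caspase-8 cleaves it into its active form. Probe set 1417045_at had a signal of 26.1 on day 0 and 339.5 on day 1, a log2 ratio of at least 2.13, and 98.4% of the measured genes had a lower ratio. The other 2, 1448560_at with 30.5 and 51.6 and 1447873_x_at with 71.8 and 22.2, were below the floor on both arrays. Bid was thus higher by its 1 measured probe set, which was measured only through day 1, and the dim ones did not share a direction.

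Bik, a BH3-only protein found largely at the endoplasmic reticulum, was measured by all 3 of its probe sets, each only through day 1. Probe set 1420362_a_at had 38.7 on day 0 and 310.3 on day 1. Probe set 1449836_x_at had 20.1 and 319.4, and 1420363_at had 13.4 and 269.9. All 3 were at the floor on day 0 and well above it on day 1, with bounds of at least 2.00, 2.04 and 1.80 log2. None of them could have come out lower, so their shared direction was fixed by the filter. The bounds lay within 0.24 log2 of each other, but all 3 were taken against the same floor. Their closeness therefore restates the day 1 signals and does not show that the probe sets agreed on the size of the difference.

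Bcl2l11 encodes Bim, which binds all survival proteins and is kept at the cytoskeleton by a dynein light chain. Its 5 probe sets were all measured, and the 3 above the floor on both arrays were all higher on day 1. The main one, 1456005_a_at, had 820.1 on day 0 and 1350.3 on day 1, or 1.65-fold. Probe set 1435448_at had 345.4 and 446.8, and 1435449_at, with 83.9 and 169.5, was the only one past 2-fold at 1.01 log2. The remaining 2 were at the floor on day 0 and gave bounds of at least 0.36 and 0.72 log2, in a direction fixed by the filter. The main ratio was 1.28 times the SD between probe sets, with 83.3% of the measured genes lower.

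Bmf, a BH3-only protein tied to loss of attachment in mammary cells, had 584.2 on day 0 and 820.7 on day 1 at 1454880_s_at, or 1.40-fold. This ratio of 0.49 log2 was smaller than the SD between probe sets, and the other 2 probe sets were below the floor on both arrays. Bad, which is held inactive by 14-3-3 proteins while it is phosphorylated, was the member closest to 0. Its signals were 300.2 and 297 at 1416583_at, a log2 ratio of -0.02, and 160.4 and 208.6 at 1416582_a_at, a log2 ratio of 0.38. Neither probe set of Bad differed by more than the SD between probe sets.

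By class, the median log2 ratio was 0.98 for the 3 survival genes, 1.21 for the single effector gene and 0.72 for the 5 BH3-only genes. At least 2-fold higher signals were found in 1 of 3, 1 of 1 and 2 of 5 of them. The classes overlapped, since the survival genes ran from -0.96 to 1.63 and the BH3-only genes from -0.02 to 2.13. The ends at -0.96, for Bcl2, and 2.13, for Bid, are bounds, and no direction is given for Bcl2. A factor that multiplies every signal of an array cancels when 2 genes of the same array are set against each other. For the 6 genes above the floor on both arrays, 3 of 15 such pairs moved apart by at least 2-fold. The 15 pairs rest on 6 ratios and are not separate results, and the share for pairs of other genes was not computed. Bcl2l1 gained 3.12-fold on Bad and 2.20-fold on Bmf, and Bak1 gained 2.34-fold on Bad. Bcl2l1 and Bak1 differed from each other by 0.42 log2, and 7 of the 15 pairs differed by less than the SD between probe sets.

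**Figure D3:**
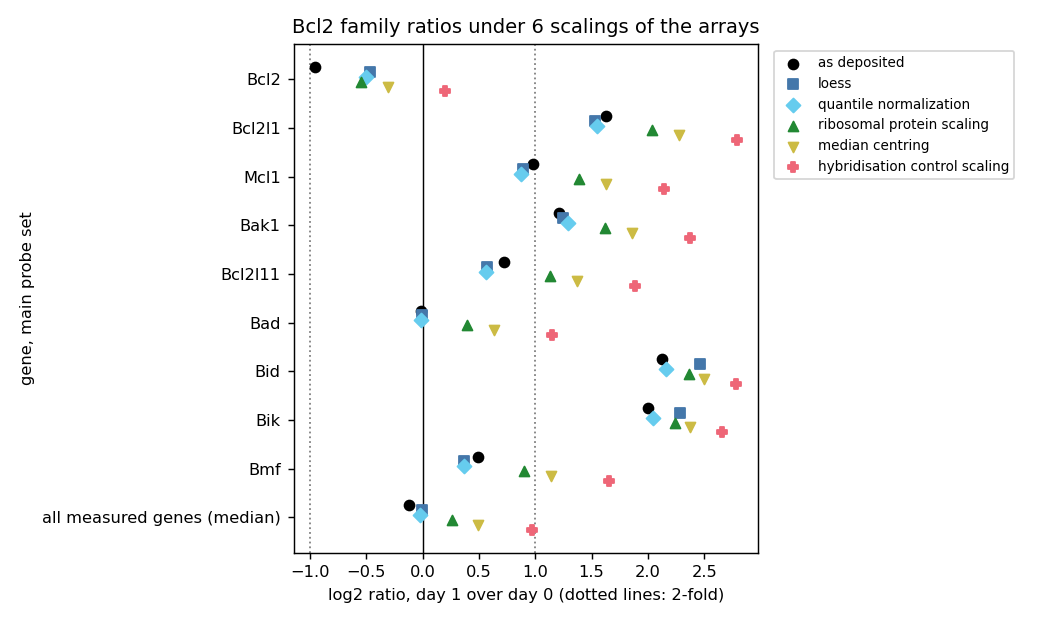
Log2 ratio of day 1 over day 0 of the main probe set of each measured member, with the median of all measured genes in the lowest row, for the deposited scaling and 5 others; dotted lines mark 2-fold. Bid, Bik, Bcl2l1 and Bak1 lie beyond 2-fold under all 6 scalings, Bcl2 changes side under hybridisation control scaling, and the median of all genes moves from -0.12 to 0.97.

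How the 2 arrays were scaled bears on every value above. The deposited signals have the same trimmed mean on both arrays, yet their median was 94.2 on day 0 and 60.1 on day 1. Bacterial hybridisation controls, which are added after the RNA is labelled, were dimmer on day 1, with log2 ratios from -2.14 to -0.50 and a median of -1.16 over the 15 that were not near the top of the signal range. The beta-actin log2 ratio was 0.20 at its 3' end and 0.93 at its 5' end, so the place of a probe set in its transcript can alter its ratio. Scaled on the hybridisation controls, 8 of the 9 members passed 2-fold on the higher side, Bad included at 1.15 log2, as did 48.7% of all measured genes, and the member median was 2.14 beside 0.97 for all genes. After quantile normalization the member median was 0.88 beside -0.02 for all genes, and after loess it was 0.89 beside -0.01. Bid, Bik, Bcl2l1 and Bak1 were the 4 members at least 2-fold higher after quantile normalization and loess too. The shares of all measured genes were 11.8% and 12.2%.

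Cell type markers moved between the arrays as well, and their part in the members' differences was not tested. In a whole gland, more cells of a type and more RNA per cell cannot be told apart. Of the 6 luminal epithelial markers, 4 passed 2-fold on the higher side and 1, Elf5, on the lower side. Their summed signal was 37981 on day 0 and 72025 on day 1. Of the 6 macrophage markers, 4 were higher by that measure and 0 lower, with summed signals of 7718 and 35390, to which Cd14 gave 3816.8 and 29010.6. Adgre1 and Csf1r stayed within 2-fold, at -0.83 and 0.40 log2, and the probe sets of Csf1r ranged from -1.12 to 0.45. Of the 5 neutrophil markers, 1 was higher and 0 lower, with sums of 609 and 742.9. S100a8 was at the floor on day 0, Csf3r on day 1 and Camp on both. Of 4 T cell markers, 2 were higher and 2 lower (568 and 709.9), and Cd3d and Cd3g were at the floor on day 0. Of 4 B and plasma cell markers, 2 were higher and 0 lower (8504 and 8961), and Cd79a was at the floor on day 0. Of the 5 endothelial markers, 0 were higher and 1 was lower (1509 and 1114). Myoepithelial (18571 and 19541), adipocyte (18659 and 20193) and fibroblast markers (15044 and 17460) had 0 in either direction, and all of those with a probe set were above the floor on both days. The epithelial, fat and stromal markers of a mammary gland were thus present in both pools.

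Of 16 further Bcl2 family genes, 11 had a probe set of their own and 9 were measured. In this group 0 passed 2-fold on the higher side and 1 on the lower side, beside 10.4% and 13.3% of all measured genes. Their median log2 ratio was -0.59, beside -0.12 for all measured genes, and 6 of 9 were below 0, a share near the 56.7% of all. The 1 gene past 2-fold was Bcl2l15, a less studied family member. Its single probe set, 1452614_at, had a signal of 1595.4 on day 0 and 262.9 on day 1, or 6.07-fold lower. Scaled on the hybridisation controls its log2 ratio was -1.44. Of the other 8 family genes, 2 gave only bounds, because they were at the floor on day 1. By main probe set both bounds were on the lower side, and these genes may differ by more than 2-fold. For 1 of them another probe set gave a log2 ratio of 0.14, so no direction is given for it. Bcl2l10 and the BH3-only gene Pmaip1 were below the floor on both arrays.

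Downstream of the pores, cytochrome c joins Apaf1 and caspase-9 in the apoptosome. Of 17 genes of this mitochondrial death machinery, 15 were measured, 1 passed 2-fold on the higher side and 0 on the lower side, and the median log2 ratio was 0.31, beside -0.12 for all measured genes. The shares of all measured genes past 2-fold were 10.4% higher and 13.3% lower, so the count of higher genes was near that of the array. Apaf1, the scaffold of the apoptosome, was that gene. Its measured probe set had a signal of 90.8 on day 0 and 217.1 on day 1, or 2.39-fold, with the day 0 signal just above the floor, and its other probe set was below the floor on both arrays. With a floor at the 75th percentile Apaf1 was not measured. The other 14 genes ranged from -0.81 to 0.59 log2.

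Of 16 genes whose products act on Bcl2 family proteins or genes, 15 were measured, 0 passed 2-fold on the higher side and 3 on the lower side, with a median of 0.14 beside -0.12 for all measured genes. The array's shares were 10.4% and 13.3%, and a count of 3 in 15 is not read as particular to these genes. The 3 were the kinases Akt1, Pim1 and Pim3, each of which phosphorylates Bad. Akt1 had a signal of 3645.9 on day 0 and 1325.5 on day 1, or 2.75-fold lower, and its other measured probe set nearest to 0 had a log2 ratio of -1.27. Pim1 had 1437.5 and 389.4, or 3.69-fold lower, with -1.25 log2 at its other probe set. Pim3 had 3628.2 and 1395.6, or 2.60-fold lower, with -1.44 log2 at its other measured probe set. All 7 measured probe sets of the 3 kinases thus passed 2-fold on the lower side, beside log2 ratios of -0.02 and 0.38 for Bad itself. Under hybridisation control scaling the 3 genes were within 2-fold, at -0.30, -0.72 and -0.22 log2 for Akt1, Pim1 and Pim3. After median centring Akt1 and Pim3 were at -0.81 and -0.73, and under ribosomal protein scaling Pim3 was at -0.97.

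**Figure D4:**
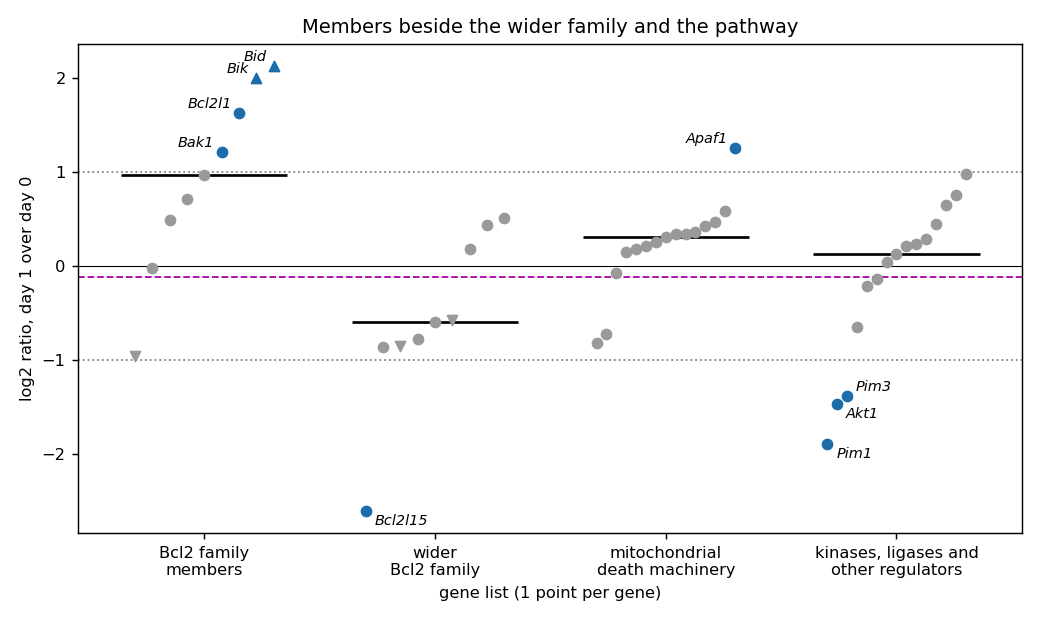
Log2 ratio of day 1 over day 0 of each measured gene in 4 lists (1 point per gene, triangles for bounds), with the median of each list as a bar, 2-fold as dotted lines and the median of all measured genes as a dashed line. Genes past 2-fold are named: 4 members above the line, Apaf1 above it, and Bcl2l15, Akt1, Pim1 and Pim3 below it.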

How the data were processed

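RNA pooled from 5 mice per day was measured on 1 array per day. The deposited intensity values are MAS 5 signals on a linear scale, made by the authors with the MAS 5 algorithms, per the labels. No source used here states the scaling target, but both arrays have the same mean once 2% of the probe sets are trimmed from each end.

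Of 45101 probe sets, 64 were controls, 34945 had 1 gene symbol, 932 had several and were left out, and 9160 are unnamed here. Symbols were updated by gene identifier to RefSeq GRCm38.p6 for 34741. Signals below 77.7 were raised to it, and log2 of day 1 over day 0 was taken for the brightest probe set of each gene. With 1 array per day no test is possible, and the number of arrays limits the precision. The 10 members are named whatever their values, and genes of the 3 further lists only if at least 2-fold different. Members and lists were chosen with earlier results of these data known.

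Alternatives were 5 scalings, each with the probe set of a gene held, floors at the 25th and 75th percentile, a pseudocount of 16 without a floor, the mean of a gene's probe sets, leaving out probe sets shared between transcripts, and thresholds of 1.5-fold and 3-fold. Python 3.11.15, numpy 2.4.6, pandas 2.3.3 and statsmodels 0.14.6 (loess, span 0.3) were used, and the functions were tested on simulated data.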

Additional observations from a re-analysis of the deposited data

How the results depend on the processing

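No paired analysis was possible because each day has 1 array, and no replicate could be left out. As deposited, 4 members were at least 2-fold higher and 0 lower, beside 10.4% and 13.3% of all measured genes, with a median log2 ratio of 0.98. The count of higher members was 7 after median centring and 8 under hybridisation control scaling, with medians of 1.62 and 2.14. The shares of all measured genes were 28.0% and 48.7%. The count was 1 with a floor at the 75th percentile, beside 10.9% of all measured genes. There Bid and Bik gave bounds of 0.44 and 0.31 log2 and Bak1 had 0.77. At that floor Bcl2 was not measured, and Bmf was not measured without shared probe sets. In the other settings the count was 3 to 6, beside 3.85% to 20.4% of all measured genes. The median was 0.60 to 1.39 over all settings but median centring and hybridisation control scaling. At a threshold of 1.5-fold, 1 member, Bcl2, was lower, beside 27.2% of all measured genes. No member was at least 2-fold lower under any setting run, beside 2.28% to 26.0% of all measured genes. Of the 39 measured genes of the further lists, 5 were at least 2-fold different (1 higher, 4 lower). After median centring 13 of 40 were (11 higher, 2 lower), beside 28.0% and 5.29% of all measured genes. Under hybridisation control scaling 27 of 40 were (26 and 1), beside 48.7% and 2.28%. With a floor at the 25th percentile 8 of 41 were (2 and 6), beside 12.0% and 26.0%. Ribosomal protein scaling gave 4 and 3 of 39, beside 20.0% and 7.76%. The cause of the change with the lower floor was not tested. The 3 scalings moved the median of all measured genes to 0.49 (median centring), 0.97 (hybridisation controls) and 0.26 (ribosomal proteins). Of 137 single-gene comparisons, 33 moved by more than 0.56 log2, the SD between probe sets, which stood in for a replicate spread, and 104 did not. Median centring and hybridisation control scaling each shift all bright genes by 1 amount larger than this SD. A change of floor leaves bright genes as they were. Much of the tally was thus fixed by the settings, and it is not read as a measure of robustness. Low signals limit Bid, Bik and Bcl2 most.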
